A study of Mus musculus with 5 samples.

Results

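Foxa1 reads from mouse liver chromatin were examined at 2 intervals, 1 assigned to Ctla4 and 1 to Ifih1, in a list of elements near diabetes genes that the study describes as bound by both Foxa1 and Foxa2. Both intervals were taken as printed in that list, which holds 33 distinct intervals at 26 genes, and each was read together with 100 kb on either side. The Ctla4 interval lies on chromosome 1 of mm8 from 60804430 to 60804700 (271 bp), and the Ifih1 interval on chromosome 2 of mm8 from 62453444 to 62453698 (255 bp). No annotation in mm8 was used here, so whether either interval is exonic, intronic or outside the gene was not analysed, and its sequence is not shown.

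There was 1 group, of 5 Foxa1 chromatin immunoprecipitation libraries. The livers came from wild-type male CD1 outbred mice aged 2 to 3 months, and each preparation used 100 mg of frozen tissue and an antiserum to Foxa1. No engineered allele or treatment differed between the libraries. The whole liver was used, so signal from a small share of cells and weak signal in all cells cannot be told apart, and with no RNA measured the tissue label could not be checked against marker genes. Input and Foxa2 libraries were not analysed here.

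Foxa1 is a winged-helix protein that binds the forkhead motif, can open compacted chromatin, and works with Foxa2 in liver development. Ctla4 encodes an inhibitory receptor of T cells, known above all from regulatory and activated T cells, which competes with the costimulatory receptor CD28 for the ligands CD80 and CD86. Ifih1 encodes MDA5, a helicase of the cytoplasm that senses long double-stranded RNA and signals through MAVS to induce type I interferon. Human variants near both genes are linked to autoimmune diabetes. In the reference gene table (GRCm38.p6), the nearest protein-coding genes on either side of Ctla4 are Cd28 and Icos, which encode costimulatory receptors of T cells. Beside Ifih1 they are Fap, which encodes a serine protease, and Gca, which encodes grancalcin, with the glucagon gene Gcg next after Fap. The 300 bp promoter sequences that RefSeq gives for Ctla4 and Ifih1 were searched on both strands for the Foxa consensus, spelled as the word TATTGAC, as the word TATTTAC, as the word TGTTGAC or as the word TGTTTAC, and neither held a match. Of 32851 such promoters, 3293 held a match (10.02%). This says nothing about the intervals, whose position relative to these promoters was not determined.

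Reads with the same strand and 5′ end within a library were counted once, because the 18 cycles of PCR copy fragments. The libraries then held 1473182 to 4742472 distinct nuclear reads, and those of replicate 5, the shallowest, had been copied 4.74 times on average. The study describes its Foxa1 libraries as 5 biological replicates. However, the file headers of replicates 3 and 4 name a single animal, so these 2 libraries may not be independent mice.

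At the Ctla4 interval 13 distinct reads were found over the 5 replicates, where 2.27 were expected from the density of the surrounding 100 kb on each side. Replicates 1 to 5 held 1, 6, 1, 4 and 1 of them, against 0.360, 0.532, 0.553, 0.627 and 0.201 expected. Most of the reads thus came from replicates 2 and 4, while the other libraries held a single read each. The pooled density was 5.72-fold over the surroundings (exact 95% interval 3.04 to 9.81, counting error only). By replicate the fold was 2.78, 11.3, 1.81, 6.38 and 4.97, above the surroundings in 5 of 5 replicates, although a single read is enough to exceed them.

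The Ifih1 interval held 9 distinct reads where 2.03 were expected. Replicates 1 to 5 gave 2, 1, 0, 1 and 5 reads, against 0.433, 0.433, 0.457, 0.532 and 0.179 expected. Replicate 5 therefore supplied 55.6% of the reads although it gave 8.80% of those in the surroundings. The pooled density was 4.43-fold over the surroundings (exact 95% interval 2.02 to 8.42), and the fold in replicates 1, 2, 4 and 5 was 4.62, 2.31, 1.88 and 27.9. Replicate 3 held no read, which allows a density of up to 6.56-fold at a limit of 3 reads. Without replicate 5 the pooled fold at Ifih1 was 2.16, whereas the fold at Ctla4 stayed between 4.02 and 6.98 with any single replicate left out.

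The study had called these intervals from these very libraries and from Foxa2 reads, so the excess is in part given by their choice. No p-value is attached to it. For the same reason nothing is read from the number of replicates above the surroundings, which was 5 at Ctla4 and 4 at Ifih1. Among 1996 bins of 200 bp around the 2 intervals, 0.0501% had more reads than the mean bin in all 5 replicates.

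**Figure D1:**
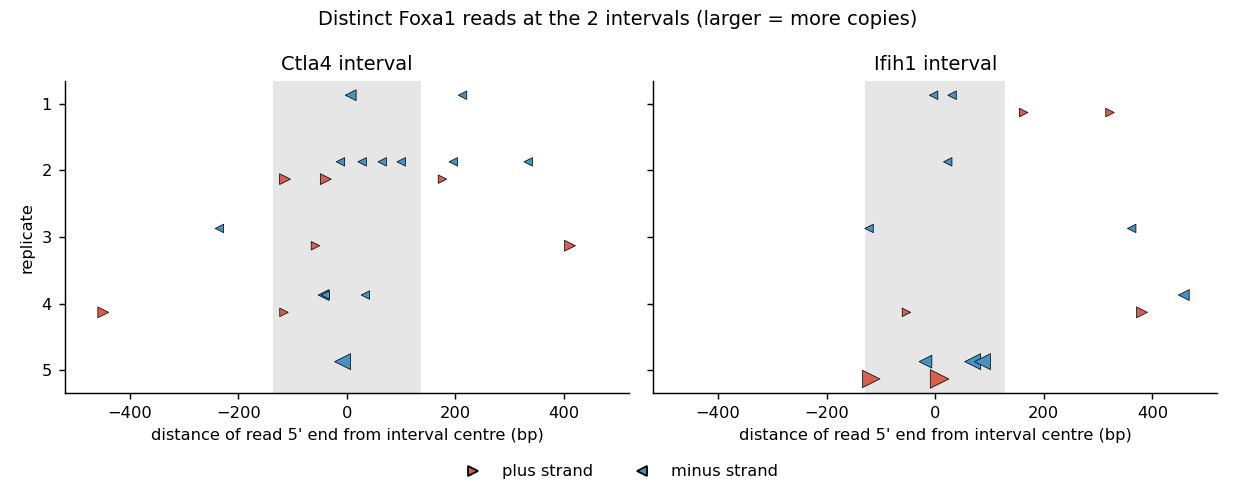
Each triangle is a distinct Foxa1 read, placed by the distance of its 5′ end from the interval centre (bp) and by replicate, pointing along its strand and drawn larger with more copies; the grey band is the interval. At Ctla4 the reads in the band came mostly from replicates 2 and 4, and at Ifih1 mostly from replicate 5.

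The positions of the reads are those inside the intervals, which the study called with these reads among others. It defined shared sites by merging overlapping Foxa1 and Foxa2 regions, so Foxa2 reads not analysed here may also have set the bounds and centres. After a shift of 50 bp toward the fragment centre, the 13 reads at Ctla4 lay from -93 to 50 bp of the interval centre (median -43 bp), and the 9 reads at Ifih1 from -68 to 58 bp (median -19 bp). At Ctla4 7 of the 13 reads and at Ifih1 5 of the 9 lay within 50 bp of the centre, and further reads lay just outside the intervals. Both intervals held reads of both strands, with 4 plus-strand and 9 minus-strand reads at Ctla4, and 3 and 6 at Ifih1.

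Around a bound site, plus-strand reads start to the left of the protein and minus-strand reads to the right. Within 250 bp of the Ctla4 centre, unshifted plus-strand 5′ ends lay 4 to the left and 1 to the right, and minus-strand ends 5 to the left and 7 to the right. At Ifih1 there were 2 and 2 plus-strand ends and 3 and 4 minus-strand ends. The median minus-strand end lay 75.5 bp to the right of the median plus-strand end at Ctla4 and 45.5 bp at Ifih1, where it was 15 bp without replicate 4 and turned to -45 bp without replicate 5. The arrangement of strands about the centre did not pass the test at either interval (two-sided Fisher's exact test, adjusted p = 0.588 at Ctla4 and 1 at Ifih1). These tests rest on 17 and 11 reads, and their p-values do not show that the strands were mixed.

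Counting copies of fragments changed the values at Ifih1 more than at Ctla4. Counted as deposited, the Ctla4 interval held 21 reads, with 2, 8, 1, 5 and 5 in replicates 1 to 5, and the 5 reads of replicate 5 were copies of 1 fragment end. The Ifih1 interval held 30 deposited reads, of which 26 came from the 5 positions of replicate 5, the most copied of them 7 times. With copies included, the fold over the surroundings was 5.86 at Ctla4 and 9.23 at Ifih1, so the order of the 2 intervals turned with the treatment of copies.

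Reads per 200 bp were then counted in rings of increasing distance, and the densest ring at both loci was the innermost. That ring covers the interval, which the study had called with these reads. Around Ctla4 there were 6.40 distinct reads per 200 bp within 250 bp of the centre, and 1.73 from 0.25 to 1 kb. From 1 to 5 kb the density was 1.43, from 5 to 20 kb 1.71 and from 20 to 100 kb 1.68. Around Ifih1 the density was 4.40 reads per 200 bp within 250 bp, 2.00 from 0.25 to 1 kb, 1.68 from 1 to 5 kb and 1.47 from 5 to 20 kb. From 20 to 100 kb it was 1.62. The mean bin of each locus held 1.67 reads at Ctla4 and 1.60 at Ifih1.

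The central 200 bp bin held 13 reads at Ctla4 and 9 at Ifih1, and none of the 998 bins outside reached the central bin at either locus. The bins were centred on intervals called with these reads, while reads clustered elsewhere can be split between bins, so this is a description. A stretch 34.7 kb from the Ctla4 interval, described below, held 14 distinct reads over 300 bp. In single libraries the central bin did not always stand alone. At Ctla4, 0 outer bins held as many reads as the centre in replicate 2 and 6 did in replicate 4, but 226, 318 and 119 did in replicates 1, 3 and 5. At Ifih1 the centre stood alone in replicate 5, while 56, 270 and 303 outer bins equalled or exceeded it in replicates 1, 2 and 4, and all 998 did in replicate 3, where the centre held no read.

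**Figure D2:**
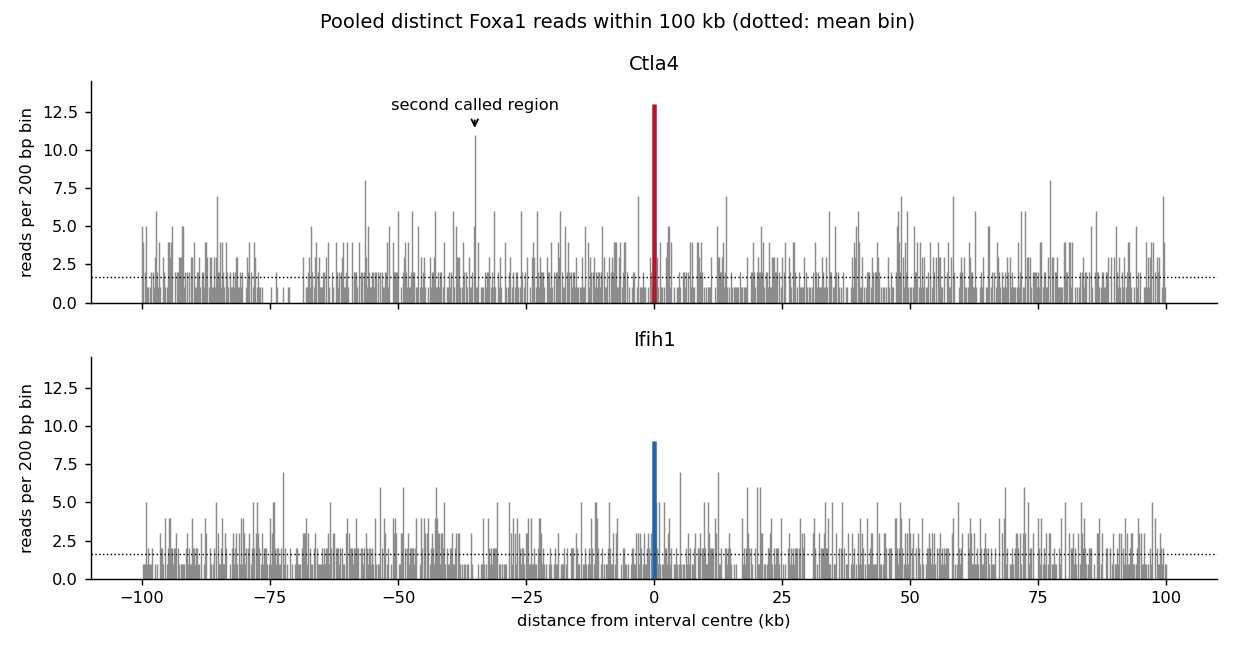
Pooled distinct Foxa1 reads in 200 bp bins (vertical axis) by distance from the interval centre in kb, with the central bin in colour and the mean bin as a dotted line. The bins are centred on the intervals, which were called with these reads. The central bin is the highest at both loci, with 13 reads at Ctla4 and 9 at Ifih1. The second called region stands 34.7 kb from the Ctla4 interval.

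To set these counts against the genome, each 200 bp window with a read was tested against its local background (one-sided exact Poisson test of the pooled reads, Benjamini-Hochberg adjustment, 5% false discovery rate). Of 34334316 windows 27367 were called, which is 0.0797%, and they merged into 11791 regions. The highest window of the Ctla4 interval held 13 reads, 8.86-fold over its background, and was called (exact Poisson test, adjusted p = 2.76e-05). Leaving out replicate 2 removed that call (exact Poisson test, adjusted p = 0.0801), and it was kept without each of the other replicates. The highest window at Ifih1 held 9 reads, 5.33-fold over its background, and was not called (exact Poisson test, adjusted p = 0.0751). Without replicate 5 the best window at Ifih1 held 4 reads (exact Poisson test, adjusted p = 0.796), and without replicate 3 its window was called (adjusted p = 0.0187). It was also called with a background of 10 kb on each side (exact Poisson test, adjusted p = 0.0431) and with the genome mean as the only background (0.0104). The same test called it among windows with at least 3 reads (0.0220) and with all deposited reads (6.71e-18). In that order, these settings called 0.0848%, 0.278%, 0.636% and 6.82% of the windows tested in each. With the limit of 3 reads the unadjusted p of the window stayed at 6.82e-05 (exact Poisson test), and only fewer windows (10070050) entered the adjustment. That limit selects windows by the count that is tested, so the false discovery rate need not hold. With all deposited reads, copies of a fragment end entered the test as separate reads. Of all 33 listed intervals 25 held a called window and 8, Ifih1 among them, did not. At these depths a window that was not called may still hold a site. These p-values rank the windows within the genome and are no independent test, since the intervals were chosen with the same reads.

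The called regions of the surroundings were then set against the list. Genome-wide 0.0797% of the windows were called, in 11791 regions. Whether the number near either interval differs from that rate was not tested. At that share a few of the 3027 windows around Ctla4 would be called, so 1 further region is not read as particular to the locus. Within 100 kb of the Ctla4 interval 1 further region was called, on chromosome 1 of mm8 from 60769401 to 60769700, which is 34.7 kb toward lower coordinates and is not in the list. Its peak window held 12 reads, 7.20-fold over the local background (exact Poisson test across all windows, adjusted p = 0.000711). Replicates 1 to 5 held 1, 2, 2, 3 and 6 of its 14 distinct reads, 2.51, 3.39, 3.27, 4.32 and 26.9-fold over the surroundings. All 5 replicates held reads there, a single one in replicate 1, and replicate 5 held the most. The region was called on these pooled reads, so its excess is in part given by the choice and is a description. Without replicate 5 the region was not called (7 reads in the best window, exact Poisson test, adjusted p = 0.314), while with any other replicate left out the adjusted p was between 0.000629 and 0.00168. Of its 38 deposited reads 27 came from replicate 5. The unshifted plus-strand ends within 250 bp of its centre lay 5 to the left and 2 to the right, the minus-strand ends 2 to the left and 6 to the right, with medians 113 bp apart. This arrangement did not pass the test (two-sided Fisher's exact test, p = 0.132). Its nearest gene in mm8 was not determined.

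No region was called within 100 kb of the Ifih1 interval in the pooled reads (0 of 3020 windows by the Poisson test at a 5% false discovery rate). Without replicate 3 there were 2 regions, 1 of them over the interval. At the share of 0.0797% called over all windows, few of the 3020 windows here would be called, so the 0 is not read as a lack of sites. At an unadjusted p under 0.05, 153 of these windows (5.07%) passed, and 202 of 3027 (6.67%) did around Ctla4. Windows overlap, so a read enters several of them, and the shares were not compared. The share over all windows of the genome was not determined, so neither is read as high or low. The highest bin outside the Ifih1 interval held 7 reads, a count that 3 bins reached. The highest outside the Ctla4 interval held 11 and belonged to the region 34.7 kb away.

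Whether the 2 loci differed was tested on the excess density in each replicate, which is the density of the interval less that of its surroundings, in reads per kb per 1000000 distinct reads. At Ctla4 the excess was 0.756, 4.74, 0.372, 2.62 and 2.00 in replicates 1 to 5 (2.10 ± 1.73, SD, n = 5). At Ifih1 it was 1.97, 0.522, -0.404, 0.387 and 12.8 (3.06 ± 5.53, SD, n = 5). Ctla4 was higher in replicates 2, 3 and 4, and Ifih1 in replicates 1 and 5. The mean difference of Ctla4 less Ifih1 was -0.963 ± 5.86 (SD), less than the spread between replicates (exact two-sided sign-flip permutation test, n = 5, p = 0.875, adjusted p = 0.875 over 3 comparisons). Only 3 of 5 replicates had Ctla4 higher, and the direction turned to 1.50 without replicate 5 and to 0.39 on the log2 scale with 0.5 reads added. The difference was -2.26 without replicate 2 and -1.58 with replicates 3 and 4, which share an animal label, as 1 unit. The smallest p that 5 replicates allow in this test is 0.062, so it cannot pass 0.05, and the result does not show that the loci were alike.

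Neither locus differed from the other 31 listed intervals by more than the spread between replicates. The median excess over those intervals was 2.06, 1.85, 0.406, 4.35 and 7.60 in replicates 1 to 5. Ctla4 was above it in 1 of 5 replicates, with a mean difference of -1.16 ± 3.07 (SD; exact sign-flip permutation test, n = 5, p = 0.438, adjusted p = 0.875). That difference was -0.0438 without replicate 5 and -2.17 without replicate 2. Ifih1 was also above it in 1 of 5 replicates, with a mean difference of -0.192 ± 3.37 (SD; exact permutation p = 0.812, n = 5, adjusted p = 0.875), and this difference was -1.55 without replicate 5 but turned to 0.0925 without replicate 2 and to 0.751 without replicate 4. It also turned with replicates 3 and 4 as 1 unit (0.357), with all deposited reads (0.284) and with no shift (0.0926). Ctla4 exceeded the median in replicate 2 and Ifih1 in replicate 5. Among the 33 intervals, Ctla4 took rank 7 in replicate 2 but ranks 17 to 30 in the other libraries, and Ifih1 rank 6 in replicate 5 but ranks 18 to 31 elsewhere. Ctla4 held 1 read in each of replicates 1, 3 and 5, and Ifih1 held 1, 0 and 1 in replicates 2, 3 and 4. The ranks in those libraries, and the place relative to the median, thus hang on single reads.

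**Figure D3:**
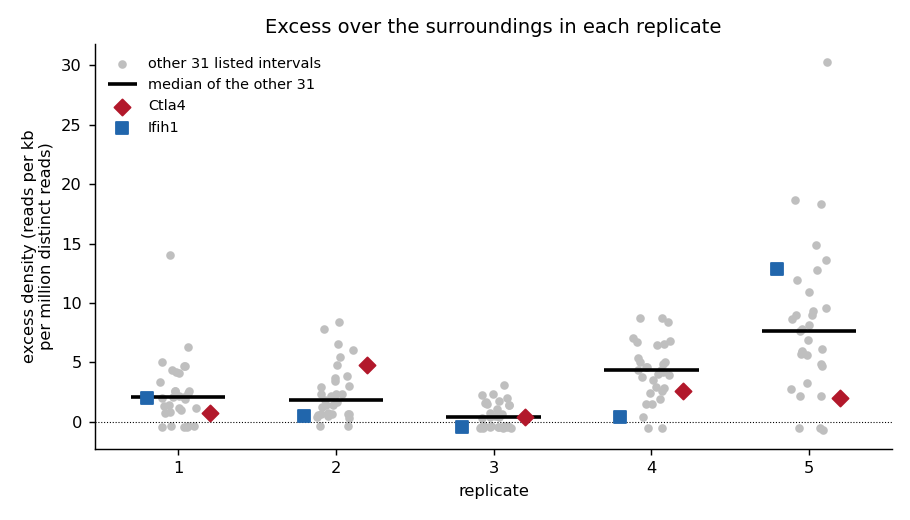
Excess read density over the surroundings (reads per kb per 1000000 distinct reads) in each replicate, with the other 31 listed intervals as grey points and their median as a bar. Ctla4 (diamonds) lies above the median in replicate 2, at 4.74, and Ifih1 (squares) in replicate 5, at 12.8.

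By pooled fold the 33 intervals ran from 13.5 at Onecut1, which encodes a liver transcription factor, down to 3.63 at Insr, which encodes the insulin receptor, with a median of 7.23. Ctla4 had rank 21, with the interval of Eif2ak3 (5.58) next below it, which encodes the kinase PERK of the endoplasmic reticulum. Ifih1 had rank 30, between an interval of Pparg (4.51), which encodes a nuclear receptor of fat cells, and that of Gatad2a (4.27), which encodes a subunit of the NuRD complex. The 95% interval at Ctla4 (3.04 to 9.81) overlapped those of Eif2ak3 and Ifih1, and that of Ifih1 (2.02 to 8.42) overlapped those of Pparg and Gatad2a. Overlap is no test of a difference, and differences in pooled fold were not tested. The interval at Onecut1 (8.91 to 19.5) lay above that at Ifih1 and overlapped that at Ctla4. By the mean excess density, which weights every replicate equally and is a difference instead of a ratio, Ctla4 had rank 27 and Ifih1 rank 17. At Ifih1 that mean rests mostly on replicate 5, with an excess of 12.8 against -0.404 to 1.97 in the other replicates.

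**Figure D4:**
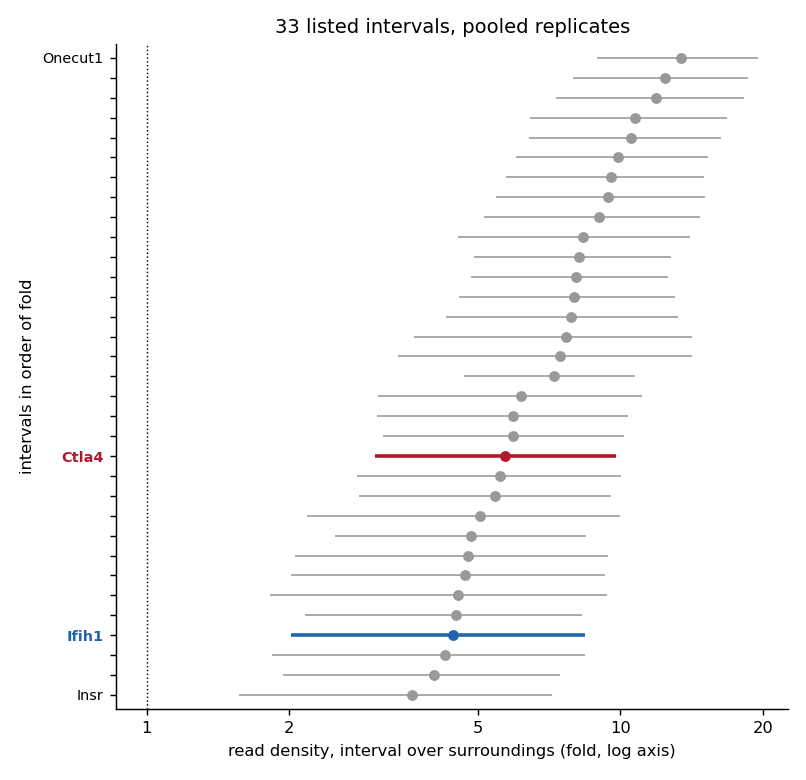
Pooled read density of the 33 listed intervals over their surroundings (fold, log axis) with exact 95% intervals for counting error; labels mark the highest, the lowest, Ctla4 and Ifih1. Ctla4 has 5.72-fold at rank 21 and Ifih1 4.43-fold at rank 30.

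The replicates contributed to the intervals in different shares. At Ctla4 the shares of the reads were 7.69%, 46.2%, 7.69%, 30.8% and 7.69% in replicates 1 to 5, against 15.8%, 23.4%, 24.3%, 27.6% and 8.85% in the surroundings, a difference within counting error (exact multinomial test, adjusted p = 0.305). At Ifih1 they were 22.2%, 11.1%, 0%, 11.1% and 55.6%, against 21.3%, 21.3%, 22.5%, 26.2% and 8.80%. This division differed from that of the surroundings (exact multinomial test, adjusted p = 0.00112), but no longer without replicate 5 (adjusted p = 0.550). The test compares these libraries and covers counting error only.

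The other 31 listed intervals together drew more of their reads from replicates 4 and 5 than the surroundings did, and fewer from replicate 3. Over all listed intervals, Ctla4 and Ifih1 included, replicate 3 gave 7.23% of the reads against 24.5% in their surroundings. A low share from replicate 3 was thus not particular to Ifih1. The reads of the other 31 divided into 14.7%, 20.5%, 7.37%, 36.4% and 21.0% among replicates 1 to 5. Compared with these shares, the reads of Ifih1 did not pass the test (exact multinomial test, adjusted p = 0.197), nor did those of Ctla4 (adjusted p = 0.264). This comparison was added after the first values were seen. Replicate 5 was both the library with the highest median excess at the other listed intervals and the one with the lowest share of distinct reads (21.1%). The relation ran through all 5 libraries. Their distinct shares were 85.0%, 86.1%, 93.1%, 57.6% and 21.1%, and their median excesses 2.06, 1.85, 0.406, 4.35 and 7.60, which stand in the opposite order. The part of copying in these excesses was not tested.

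**Figure D5:**
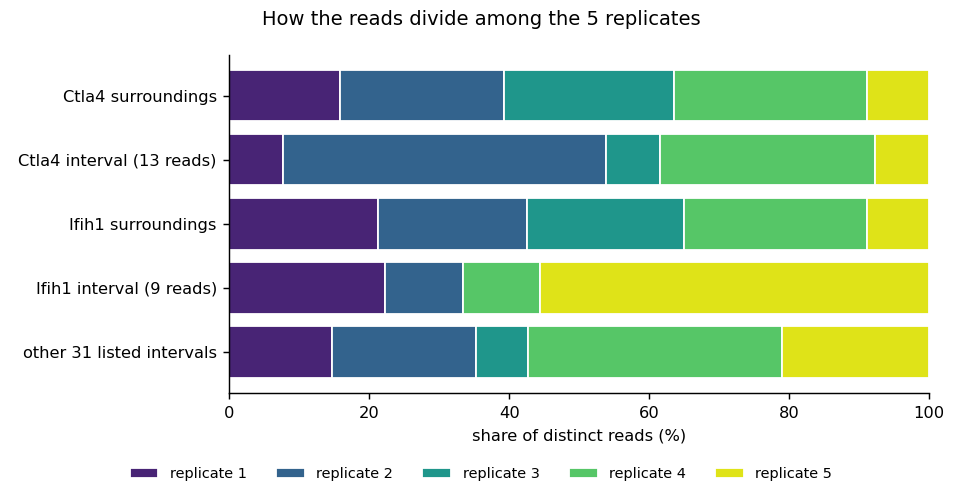
Share of distinct reads (%) from each of the 5 replicates in the surroundings, in the interval of each gene, and in the other 31 listed intervals. Replicate 5 gives 55.6% of the reads at Ifih1 against 8.80% in its surroundings, and replicate 2 gives 46.2% at Ctla4.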

How the data were processed

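The authors deposited, for each of the 5 replicates, the positions and strands of 36 nt reads that ELAND had placed at a unique best alignment in mm8, with copies kept and no normalization. These files hold read positions, not counts or coverage. Replicate numbers came from the sample titles. Distinct nuclear reads numbered 3123543, 4259483, 4433367, 4742472 and 1473182 in replicates 1 to 5. Each 5′ end was moved 50 bp along its strand and counted in the intervals, in 200 bp bins, and in 200 bp windows every 50 bp on 21 chromosomes. A window's background was its genome average or, where higher, the average of 5 kb on each side, without the central 1 kb. Surroundings reached 100 kb and left out 1 kb beside every listed interval. Without input reads, the study's own peak calling could not be repeated.

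The members, lists and tests were chosen with earlier results of these data known. Named were both intervals, every called region and the highest bin within 100 kb, and of the other intervals the extremes and the neighbours in rank, 1 of which is not reported here. Tests were run in SciPy 1.17.1 under Python 3.11.15, with arrays in NumPy 2.4.6 and plots in Matplotlib 3.10.9. The window calls were tested on simulated reads. Alternatives covered copies, the shift, the background, the width, the false discovery rate, low counts and each replicate left out.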

Additional observations from a re-analysis of the deposited data

Results flagged for a closer look

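Among 5 sets of replicate values examined by the Dixon ratio for a library far from the others, replicate 5 stood apart in 3. Chance flags about 1 in 20, but these sets cannot be read against it, since 2 of the 3 are measures of the same Ifih1 reads and the third is a region called only with replicate 5 included. At Ifih1 its fold over the surroundings was 27.9 and its excess density 12.8 reads per kb per 1000000 distinct reads. At the called region 34.7 kb from the Ctla4 interval its fold was 26.9. No replicate stood apart at the Ctla4 interval itself. A high replicate 5 was not particular to these places, since its median excess over the other 31 listed intervals was 7.60, against 0.406 to 4.35 in the other replicates.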

How the results depend on the processing

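At 13 and 9 reads, counting error limits every value. With each replicate left out in turn, called regions within 100 kb numbered 1 to 2 around Ctla4 (1 without replicate 2 or 5) and 0 to 2 around Ifih1 (2 without replicate 3), and called windows genome-wide 15500 (without replicate 4) to 30800, with 17037 without replicate 5. With all deposited reads these were 64, 65 and 2343070, and with the genome mean as the only background 6, 3 and 95287. A background of 10 kb gave 1 region at Ifih1 and windows with at least 3 reads 3 regions there, including its interval (adjusted p = 0.0431 and 0.0220, exact Poisson test). The limit of 3 reads selects windows by the count that is tested. A false discovery rate of 1% left 15973 windows genome-wide, and windows with at least 3 reads 64048. Ctla4 less Ifih1 turned to 0.39 on the log2 scale with 0.5 reads added, was -0.413 with the intervals widened and -1.58 with replicates 3 and 4 as 1 unit, and ran from -2.26 to 1.50 (without replicate 5) with 1 replicate left out. Ctla4 less the other intervals was -0.441 with the intervals widened, and ran from -2.17 (without replicate 2) to -0.0438 (without replicate 5). Ifih1 less the other intervals turned to 0.284 with all deposited reads, 0.0926 with no shift and 0.357 with replicates 3 and 4 as 1 unit (added after the data were seen), and ran from -1.55 to 0.751 with 1 replicate left out. The uneven division at Ifih1 had adjusted p of 0.197 against the other intervals and 0.000465 to 0.550 (without replicate 5) with 1 replicate left out (exact multinomial test). The strand offset there ran from -45 (without replicate 5) to 76 bp. The causes were not tested. The 3 differences between intervals were paired within replicates, and there was 1 group of samples, so none were paired between groups.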
